A study of Mus musculus with 16 samples.

Results

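The complement genes examined here were 32 components, receptors and regulators of the complement system, chosen by gene symbol from the 26382 genes of a table of mouse hamstring muscle RNA. All 32 had a row in the table. They comprised 8 genes of the classical pathway, 3 of the lectin pathway, *C3*, 3 of the alternative pathway, 4 of the terminal pathway, 5 receptors and 8 regulators. Testing was restricted to genes with a mean of at least 0.5 normalized counts over all 16 libraries, which left 16414 genes and 26 of the 32 complement genes. The 6 complement genes under that level were *C4a*, *Masp2*, *Hc*, *Cr2*, *Vsig4* and *Cfi*. No tested complement gene passed only through the libraries in which it was high, since the lowest mean of any of them over the 9 PBS libraries was 0.639 normalized counts.

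The libraries came from 9 female C57BL/6 mice aged 8 to 10 weeks, whose muscle was taken 14 days after injection. HRS is histidyl-tRNA synthetase, the target of anti-Jo-1 antibodies in human myositis. In 5 mice (m862 to m866), the left hamstring received HRS at 3 to 5 mg/mL (HRS legs) and the right hamstring received PBS (contralateral PBS legs). Both hamstrings of 2 further mice (m867 and m868) received PBS, giving 4 PBS-only legs, and 1 library each came from mice m860 and m861, immunized with an HRS-MBP fusion protein whose concentration the titles give as 2 to 3 mg/mL. The treatment label of the HRS-MBP libraries reads HRS at 3 to 5 mg/mL, and the leg they came from is not given. The general protocol describes injection of both legs, whereas the titles of mice m862 to m866 give PBS for the right leg and a code, ma, that is not explained there for the left leg. The treatment label of the left-leg libraries is HRS, and the legs were grouped by these labels. The same code stands in the titles of the fusion protein libraries and was read as HRS there too. Every HRS leg of these mice was a left leg and every contralateral leg a right leg, so side and protein cannot be told apart within them. The PBS-only legs were pairs from the same animals, and p-values that treat them as 4 samples measure in part the spread between legs.

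Complement is a cascade of plasma and tissue proteins that tag cells, immune complexes and microbes for clearance. C1q with its proteases C1r and C1s, then C4 and C2, form the classical branch; mannose-binding lectins or ficolins with MASP proteases form the lectin branch; factor B, factor D and properdin form the alternative branch; and all branches meet at C3, from which the anaphylatoxins, their receptors and the membrane attack complex follow. Most circulating components are made in the liver, but C1q is made mainly by macrophages, factor D (adipsin) by adipocytes, and C3, C1r, C1s and C1 inhibitor by many stromal and myeloid cells, and deposition of the membrane attack complex on capillaries is a known feature of dermatomyositis.

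The deposited values are normalized counts, and each library's depth in reads was estimated from the value that 1 read was worth there. It was 37.3 to 73.9 M reads in the HRS legs, 24.7 to 72.8 M reads in the contralateral legs, 8.60 to 40.7 M reads in the PBS-only legs, and 37.3 and 39.6 M reads in the HRS-MBP libraries. Markers of skeletal muscle fibres were at high levels in every library, with sums of 6 genes from 34497 to 142191 normalized counts in HRS legs and 101093 to 162653 in contralateral legs. On the first principal component of all tested genes, which held 77.3% of the variance, the HRS leg of mouse m866 lay at 2.84, between the other 4 HRS legs (-123 to -65.4) and the contralateral legs (37.9 to 76.5). Values without this mouse are given where they change the call of a complement gene. The sum of normalized counts over all genes was 726797 to 871400 in the other HRS legs and 805943 and 828943 in the HRS-MBP libraries, against 958741 to 1252358 in the PBS libraries and 1162004 in the HRS leg of mouse m866. The share of 29 mitochondrial genes moved with it, at 3.41% to 6.29%, 5.94% and 6.98%, 9.69% to 13.1% and 11.1%, respectively, and the part of both in the results was not tested.

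Whether complement genes differ between muscle that received HRS and the PBS leg of the same animal was examined first. By limma, 14 complement genes were higher in HRS legs and 1 was lower among the 26 tested, at an adjusted p below 0.05 and an absolute log2 fold change above 1. Over all 16414 genes, 16.9% were called higher and 6.27% lower. The genes that rose covered all 7 tested members of the classical pathway, *C3*, *Cfb* and *Cfp* of the alternative pathway, all 3 tested receptors, and *Serping1* alone among 7 tested regulators. The gene that fell was *Cfd*. No tested member of the lectin or terminal pathway was called. The median log2 fold change of the 26 genes was 1.37, beside 0.0769 for all genes tested.

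In 12 complement genes, every HRS leg was above every contralateral leg, which held for 18.3% of all genes, and in none was every HRS leg below every contralateral leg, which held for 3.19%. Counted within mice, 14 of the 26 were higher in the HRS leg of all 5 mice (26.3% of all genes) and 4 were lower in all 5 (8.97%). Among the 14 genes called higher, the HRS leg of mouse m864 was the highest of the HRS legs for 12 and that of mouse m866 the lowest for 13. The difference between the legs was smallest in mouse m866 for all 14.

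**Figure D1:**
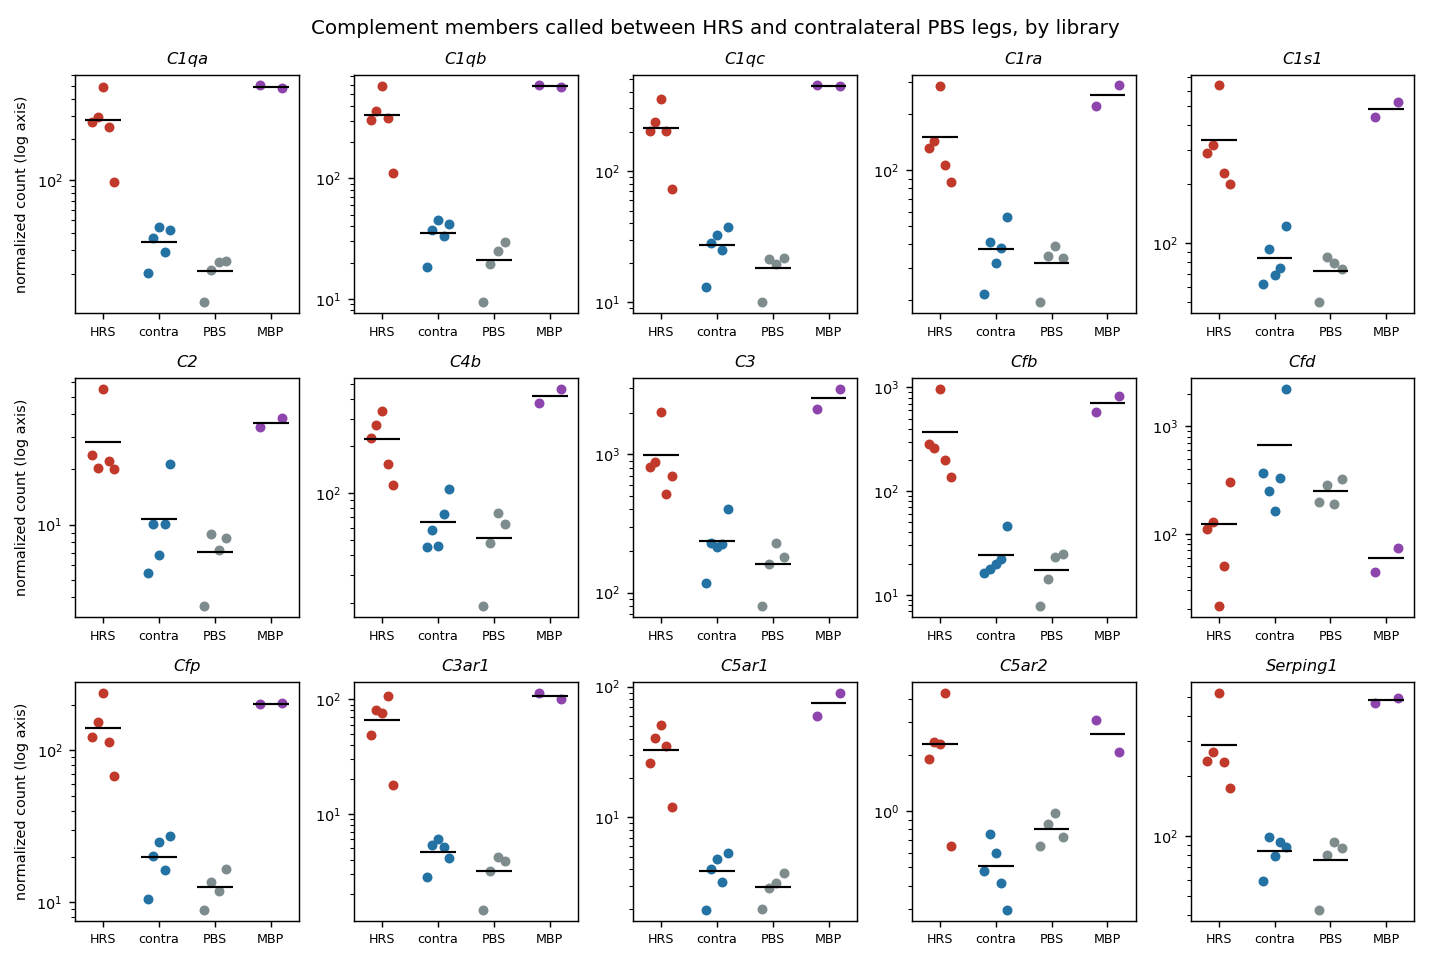
Normalized counts (log axis) of the 15 complement genes called between HRS and contralateral PBS legs; each point is 1 library, each black line the mean of a group, with HRS legs (n = 5), contralateral PBS legs (contra, n = 5), PBS-only legs (PBS, n = 4) and HRS-MBP libraries (MBP, n = 2). HRS legs and HRS-MBP libraries lie above both PBS groups for most genes, for example 96.5 to 490.2 against 20.3 to 44.8 in contralateral legs for *C1qa*, and *Cfd* shows the opposite order.

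The 3 chains of C1q, the recognition molecule of the classical pathway, rose together. *C1qa* was at 268, 295, 490.2, 249 and 96.5 normalized counts in the HRS legs of mice m862 to m866, and at 20.3, 37.1, 44.8, 29.1 and 42.5 in their contralateral legs. *C1qb* was at 307, 359, 578, 314 and 111 in the same HRS legs and at 18.2, 37.4, 45.3, 33.1 and 41.7 in the contralateral legs. *C1qc* was at 203, 235, 356, 201 and 73.0 and at 13.0, 28.3, 32.4, 25.1 and 37.6 normalized counts, respectively. For none of the 3 chains did the groups overlap, and for each chain the HRS leg of mouse m864 was the highest and that of mouse m866 the lowest, well below the other HRS legs. The log2 fold change between HRS and contralateral legs was 2.87 ± 0.34 (SE) for *C1qa*, 3.12 ± 0.38 for *C1qb* and 2.86 ± 0.36 for *C1qc*, with limma adjusted p-values of 1.43e-05, 1.87e-05 and 2.4e-05. The mean normalized count was 8.05, 9.51 and 7.83 times as high, and the differences among the chains were within the standard errors. Without both legs of mouse m866 the value for *C1qb* was 3.54. These genes lie side by side on chromosome 4 in the order *C1qb* (chr4:136880129-136886187), *C1qc* (chr4:136889804-136893065) and *C1qa* (chr4:136895917-136898803), with 3616 and 2851 bases between them (GRCm38, minus strand).

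The C1 proteases, which C1q activates, also rose. *C1ra*, encoding C1r, was at 133, 144, 284, 107 and 86.5 normalized counts in HRS legs and 21.6, 41.3, 31.6, 38.2 and 56.4 in contralateral legs. The groups did not overlap, and the log2 fold change was 1.92 ± 0.30 (adjusted p = 0.000134). *C1s1*, encoding C1s, ranged from 201 to 637 normalized counts in HRS legs and from 62.3 to 122 in contralateral legs, with a log2 fold change of 1.89 ± 0.27 (adjusted p = 6.21e-05). Both genes have close copies in the mouse genome (*C1rb* and *C1s2*, respectively), and reads shared between a gene and its copy could have been assigned to either. The sequences of these copies were not compared here.

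*C2* encodes the protease subunit of the classical C3 convertase. It was at 23.9, 20.4, 54.9, 22.4 and 20.2 normalized counts in HRS legs and 5.45, 10.0, 6.85, 10.0 and 21.4 in contralateral legs. Mouse m864 had by far the highest HRS leg, and in mouse m866 the HRS leg was slightly below the contralateral leg, so that *C2* was the only gene among the 14 that was not higher in the HRS leg of every mouse. Its log2 fold change was 1.39 ± 0.34 (adjusted p = 0.00324), 1.76 without both legs of mouse m866 and 1.01 without both legs of mouse m864, and the call held in both cases. *C4b*, encoding complement C4, was at 226, 272, 337, 154 and 113 normalized counts in HRS legs and 45.6, 58.1, 45.7, 73.1 and 107 in contralateral legs. The groups did not overlap, although the HRS leg of mouse m866 and its contralateral leg differed by only 0.08 on the log2 scale, and the log2 fold change was 1.71 ± 0.36 (adjusted p = 0.00137).

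*C4a*, the second mouse C4 gene, was under the filter, at 0.651, 0.711, 0.588, 0.492 and 0.446 normalized counts in HRS legs and 0.153, 0.130, 0.0477, 0.0956 and 0.244 in contralateral legs. These values rest on about 185 reads over the 5 HRS legs and 26 over the 5 contralateral legs. Without the filter its log2 fold change was 0.77 (adjusted p = 0.000516), which was not called, and the pseudocount of 0.5 compresses changes at this level. *C4a* (chr17:34809092-34823464) and *C4b* (chr17:34728380-34743882) lie near each other on chromosome 17. The longest transcripts of both in GENCODE M21 were 96.14% identical over 5367 aligned bases, and 16.5% of the 100-base stretches of *C4a* occurred without a difference in *C4b*, so that part of the signal of one gene cannot be told apart from that of the other. The stretch printed with this comparison is the 60-base window of the *C4b* coding sequence with the most differences between the genes, shown because reads from it can be assigned; capitals mark the 13 bases that differ.
C4a: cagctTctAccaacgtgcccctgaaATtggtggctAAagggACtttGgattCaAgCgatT
C4b: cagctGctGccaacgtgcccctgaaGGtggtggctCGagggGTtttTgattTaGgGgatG

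**Figure D2:**
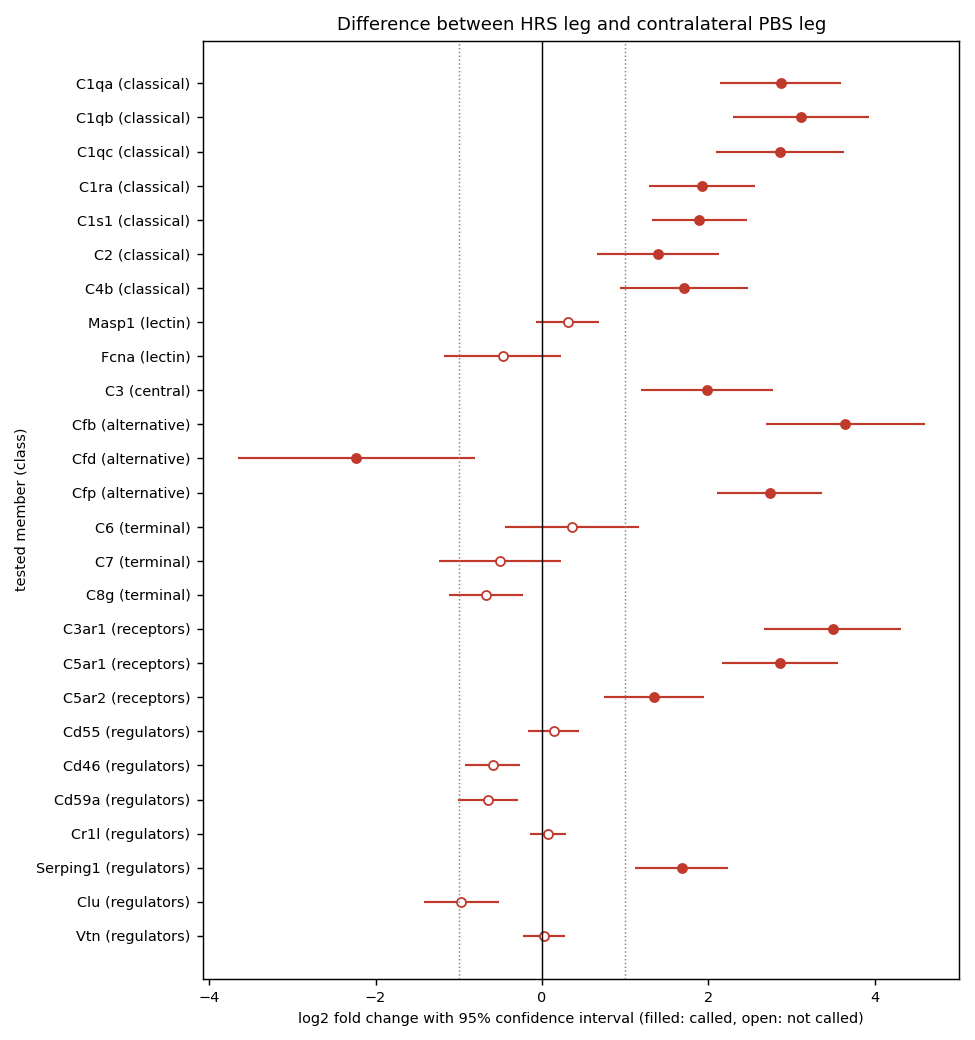
Log2 fold change (x axis) of each of the 26 tested complement genes (y axis, with class) between HRS legs and contralateral PBS legs (5 against 5 libraries); bars are 95% confidence intervals, filled points are called and open points are not, and dotted lines mark a log2 fold change of 1 in either direction. Classical genes and receptors lie to the right, lectin and terminal genes and all regulators but *Serping1* lie within the dotted lines, and *Cfd* lies to the left at -2.23.

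Of the lectin pathway, neither of the 2 tested genes was called. *Masp1*, which encodes a MASP protease, ranged from 5.02 to 11.1 normalized counts in HRS legs and from 4.58 to 7.90 in contralateral legs. It was higher in the HRS leg of all 5 mice, but by a log2 fold change of 0.31 ± 0.18 (adjusted p = 0.139), and the groups overlapped. *Fcna*, encoding ficolin A, ranged from 1.18 to 4.30 and from 1.73 to 5.95 normalized counts, with a log2 fold change of -0.47 ± 0.33 (adjusted p = 0.227). *Masp2* did not exceed 0.202 normalized counts in any library and was not tested.

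*C3*, the protein on which all branches converge, was at 813, 874, 2014, 513 and 699 normalized counts in HRS legs and 117, 229, 212, 225 and 403 in contralateral legs. Every HRS leg was above every contralateral leg, with the HRS leg of mouse m864 far above the other HRS legs and the contralateral leg of mouse m866 the highest of its group. The log2 fold change was 1.99 ± 0.37 (adjusted p = 0.00059), and it was 1.67 without both legs of mouse m864.

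In the alternative pathway, 2 genes rose and 1 fell. *Cfb*, encoding factor B, the protease subunit of the alternative C3 convertase, was at 284, 263, 963, 199 and 137 normalized counts in HRS legs and 16.1, 17.7, 19.6, 22.0 and 46.5 in contralateral legs. The groups were far apart, and the log2 fold change of 3.65 ± 0.45 (adjusted p = 1.92e-05) was the highest among the 26 genes in this comparison. It was 3.17 without both legs of mouse m864 and 4.17 without both legs of mouse m866. *Cfp*, encoding properdin, which stabilizes that convertase, was at 123, 155, 239, 114 and 68.2 normalized counts in HRS legs and 10.5, 20.3, 24.9, 16.4 and 27.3 in contralateral legs. These groups did not overlap either, and the log2 fold change was 2.74 ± 0.30 (adjusted p = 6.13e-06).

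*Cfb* (chr17:34856374-34862518) and *C2* (chr17:34862604-34898265) are neighbours on chromosome 17 with 85 bases between them. The annotation also places *Gm20547* over parts of both on the same strand, and it was at 0.0200 to 2.49 normalized counts. In all, 13 of the 32 complement genes overlap another annotated gene. Whether the counting used strand is not given in the sources used here, so that reads of overlapping genes may have been exchanged.

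*Cfd*, encoding factor D, the protease that cleaves factor B, went the other way. It was at 109.7, 129.9, 21.2, 50.6 and 302 normalized counts in HRS legs and 367, 249, 163, 329 and 2219.5 in contralateral legs, and was lower in the HRS leg of all 5 mice. The groups overlapped, because the HRS leg of mouse m866 was at the level of the other mice's contralateral legs, and the contralateral leg of the same mouse was the highest of all 16 libraries. The log2 fold change was -2.23 ± 0.67 (adjusted p = 0.0101). It was -1.62 (adjusted p = 0.0206) without the contralateral leg of mouse m866, -2.68 (adjusted p = 0.00143) without its HRS leg, and -2.07 (adjusted p = 0.000845) without both. Adipocyte markers moved in the same libraries. Of 6 markers (*Adipoq*, *Plin1*, *Cidec*, *Fabp4*, *Lep* and *Retn*), 5 were called lower in HRS legs, and their summed level ranged from 119 to 424 normalized counts in HRS legs and from 262 to 2699 in contralateral legs, with the contralateral leg of mouse m866 the highest. *Adipoq*, encoding adiponectin, was at 22.3, 22.8, 3.82, 8.81 and 36.7 in HRS legs and 51.1, 37.6, 21.6, 47.1 and 344 in contralateral legs. The part of the adipocyte markers in the result was not tested, and here as in all results fewer cells of a type and less RNA per cell cannot be told apart.

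**Figure D3:**
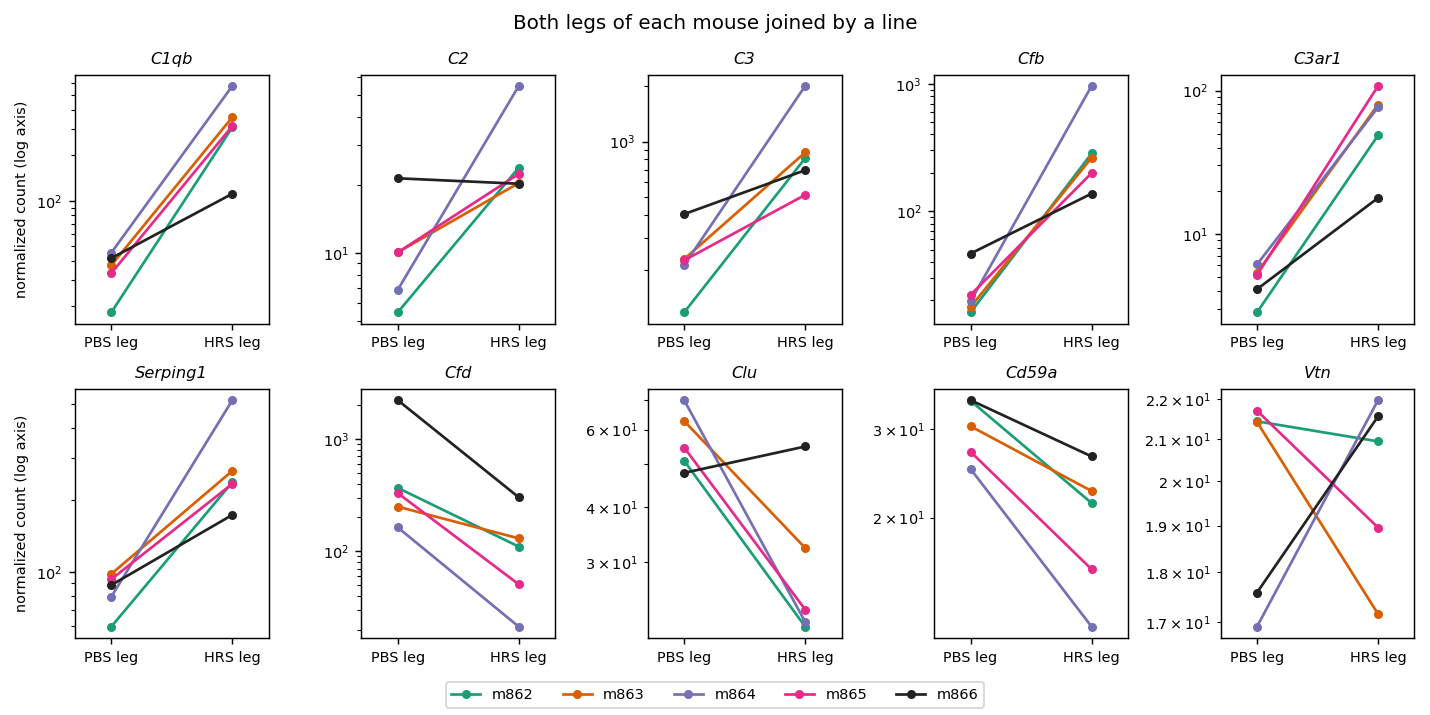
Normalized counts (log axis) in the PBS leg and the HRS leg of each of mice m862 to m866, joined by a line per mouse, for 10 complement genes. Lines rise in all 5 mice for *C1qb*, *C3*, *Cfb*, *C3ar1* and *Serping1*, fall in all 5 for *Cfd* and *Cd59a*, and cross for *Vtn*; mouse m866 has nearly level lines for *C2* and *Clu*.

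Of the terminal pathway, which assembles the membrane attack complex, none of the 3 tested genes was called. *C6* ranged from 0.530 to 2.73 normalized counts in HRS legs and from 0.242 to 1.52 in contralateral legs (log2 fold change 0.37 ± 0.38, adjusted p = 0.414). *C7* ranged from 0.389 to 3.08 and from 1.11 to 2.76 normalized counts (log2 fold change -0.51 ± 0.34, adjusted p = 0.211), and was called lower in 1 alternative, with array weights (-1.02, adjusted p = 0.00383). *C8g*, encoding the gamma chain of C8, was lower in the HRS leg of all 5 mice, at 0.694 to 1.43 against 1.06 to 3.00 normalized counts. Its adjusted p was 0.0126, but its log2 fold change of -0.67 ± 0.21 did not pass the fold threshold, and it was called lower only with quantile normalization (-1.05). *Hc*, the gene of C5, was listed at 0.220, 0.378, 0.661, 0.374 and 0 normalized counts in HRS legs and at 0.0320, 0.494, 0.0462, 0.0294 and 0.862 in contralateral legs, with its highest value in the contralateral leg of mouse m866, and was not tested.

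The receptors for the anaphylatoxins C3a and C5a, carried by myeloid cells, showed large rises. *C3ar1*, the C3a receptor, was at 48.6, 79.9, 76.4, 108 and 17.8 normalized counts in HRS legs and 2.82, 5.32, 6.10, 5.15 and 4.09 in contralateral legs. *C5ar1*, the C5a receptor, was at 26.1, 40.7, 51.0, 35.1 and 12.1 and at 1.95, 4.0, 4.80, 3.21 and 5.30 normalized counts, respectively. In both genes every HRS leg was above every contralateral leg, and the lowest HRS leg was that of mouse m866. Their log2 fold changes were 3.49 ± 0.39 and 2.86 ± 0.33 (adjusted p = 7.58e-06 and 1.03e-05).

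*C5ar2*, the second C5a receptor, lies 2588 bases from *C5ar1* on chromosome 7 (chr7:16234585-16244154 and chr7:16246743-16259540). It was at 1.90, 2.35, 2.29, 4.29 and 0.654 normalized counts in HRS legs and 0.481, 0.758, 0.600, 0.412 and 0.296 in contralateral legs, higher in the HRS leg of each mouse, with overlap through mouse m866. The log2 fold change was 1.35 ± 0.28 (adjusted p = 0.00122), and the call was lost with a pseudocount of 2 (0.72) and with quantile normalization (0.96), since the fold change then fell below 1. *Cr2*, complement receptor 2 of B cells, was at most 0.482 normalized counts, and *Vsig4*, a receptor for C3 fragments on resident macrophages, at most 0.216, and neither was tested.

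Among regulators, which limit complement on host tissue, *Serping1* rose and the others did not pass the thresholds. *Serping1*, encoding C1 inhibitor, which blocks C1r and C1s, was at 237, 265, 521, 234 and 174 normalized counts in HRS legs and 59.4, 98.5, 79.2, 93.6 and 88.5 in contralateral legs. The groups did not overlap, and the log2 fold change was 1.68 ± 0.26 (adjusted p = 0.000138). *Clu*, encoding clusterin, an inhibitor of the terminal complex, was at 21.4, 32.3, 21.9, 23.4 and 54.9 normalized counts in HRS legs and 51.0, 62.7, 70.0, 54.6 and 47.8 in contralateral legs. It was lower in the HRS leg of 4 mice and slightly higher in that of mouse m866. With a log2 fold change of -0.97 ± 0.21 (adjusted p = 0.00171), it lay just short of the fold threshold. It was called lower in 8 of 30 alternative settings, among them the fits without the HRS leg of mouse m866 (log2 fold change -1.20, adjusted p = 3.5e-06) and without both its legs (-1.26, 3.02e-06).

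None of the membrane regulators passed both thresholds. *Cd46*, a cofactor for cleavage of C3b, ranged from 2.42 to 4.72 normalized counts in HRS legs and from 4.44 to 6.56 in contralateral legs, with a log2 fold change of -0.59 ± 0.15 (adjusted p = 0.00442). *Cd59a*, an inhibitor of the membrane attack complex, ranged from 12.1 to 26.5 and from 25.0 to 34.2 normalized counts, with a log2 fold change of -0.64 ± 0.17 (adjusted p = 0.00469). Both were lower in the HRS leg of all 5 mice without passing the fold threshold, and among the alternatives only *Cd46* with quantile normalization was called. For *Cd55*, decay-accelerating factor, the 95% confidence interval of the log2 fold change was -0.17 to 0.45; for *Cr1l*, the gene of the rodent regulator Crry, it was -0.15 to 0.28; and for *Vtn*, vitronectin, -0.23 to 0.27. *Cfi*, encoding factor I, which cleaves C3b and C4b, was under the filter, at 0.191, 0.130, 1.25, 0.694 and 0.12 normalized counts in HRS legs and 0.0641, 0.0330, 0.0462, 0 and 0.0269 in contralateral legs. Every HRS leg was above every contralateral leg, on about 138 reads against 6, and without the filter its log2 fold change was 0.74 (adjusted p = 0.0143), which was not called.

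The rest of the pathway was covered by a list of 31 further complement genes, of which 21 had a row and 14 were tested. Counted over the 12 of these with a mean of at least 0.5 normalized counts in the 9 PBS libraries alone, limma called 6 higher in HRS legs and none lower (14.1% and 6.65% of all genes that pass this way), and their median log2 fold change was 0.85. The largest differences were in the subunits of the leukocyte complement receptors CR3 and CR4, *Itgax* (4.13 ± 0.37), *Itgb2* (4.08 ± 0.39) and *Itgam* (3.58 ± 0.32). The protease gene *C1rl* (1.83 ± 0.34), *Cd93* (1.21 ± 0.21) and the collectin gene *Colec12* (1.05 ± 0.30) were also called higher. In mouse m866, *C1rl* and *Colec12* were lower in the HRS leg (log2 differences -0.14 and -0.71), and their groups overlapped. The others called were higher in the HRS leg of every mouse. Alternative settings were not run for this list. *C1s2* had a mean of 1.90 normalized counts in HRS legs and 0.0752 in contralateral legs, so that it was tested only through the libraries in which it was high, and its difference is given as a description.

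Markers of cell types that make complement proteins were examined in the same libraries. Of 8 macrophage and monocyte markers, 7 were called higher in HRS legs and 1, *Cd163*, was called lower (log2 fold change -1.57 ± 0.26). Their summed level ranged from 994 to 4954 normalized counts in HRS legs and from 109 to 289 in contralateral legs, with the HRS leg of mouse m864 the highest and that of mouse m866 the lowest of the HRS legs. Of 6 fibroblast markers, 4 were called higher and none lower, with sums of 2414 to 24238 and 1090.3 to 2606 normalized counts. In mouse m866 all 6 were lower in the HRS leg, with log2 differences from -0.01 (*Col1a1*) to -0.20 (*Col3a1*). The fibroblast sums of the HRS-MBP libraries were 12489 and 5341, between that of the HRS leg of mouse m866 and those of the other HRS legs. Neutrophil and B cell markers had sums of 10.3 to 119 against 1.03 to 3.51 and 5.00 to 40.2 against 0.794 to 1.62 normalized counts, and no call is counted for them because all but 1 of the tested ones (a neutrophil marker) passed the filter only through libraries in which they were high. None of 6 endothelial and none of 5 red cell markers was called. Muscle fibre markers included 2 of 6 that were called lower (*Ckm* and *Tnnt3*). Of 6 hepatocyte markers, 3 had a row and none was tested, and their summed level was at most 1.53 normalized counts in any library. The part of these marker levels in the complement results was not tested.

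**Figure D4:**
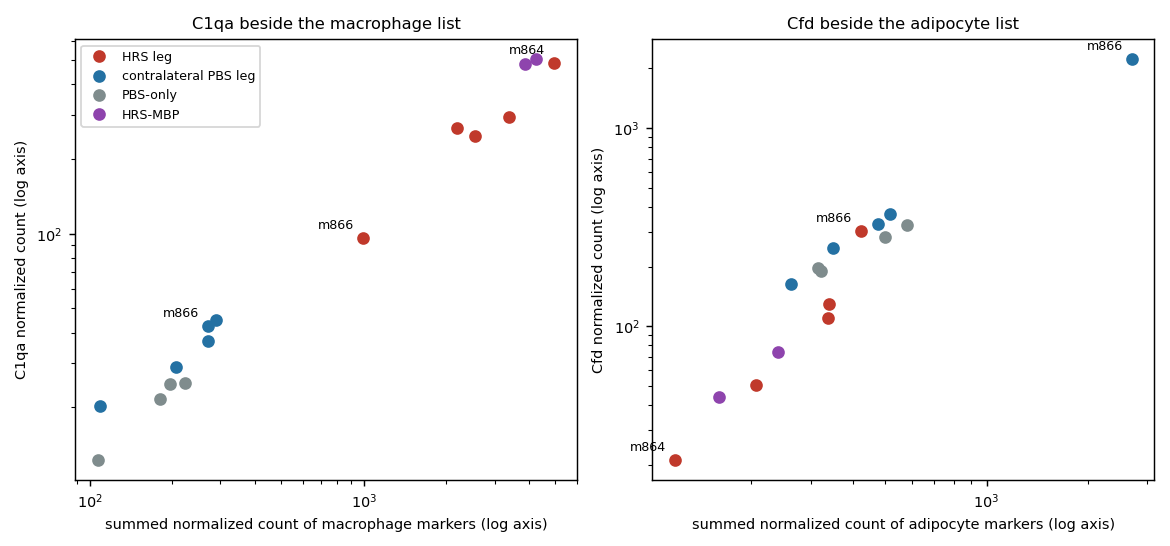
Normalized count of *C1qa* (left, log axis) against the summed normalized count of 8 macrophage markers (log axis), and of *Cfd* (right) against that of 6 adipocyte markers, each point being 1 of the 16 libraries coloured by group. *C1qa* is lowest where the macrophage sum is lowest and the HRS leg of mouse m866 lies between the groups; the contralateral leg of mouse m866 has the highest *Cfd* and the highest adipocyte sum, and the HRS leg of mouse m864 the lowest of both.

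Contralateral legs were compared with PBS-only legs to see whether complement genes differ between a PBS leg of an HRS mouse and a leg of a mouse that received PBS alone. By limma, no complement gene was called in either direction and none had an unadjusted p below 0.05, while over all genes 0% were called higher and 0.00609% lower, and 902 of 16414 had an unadjusted p below 0.05. The log2 fold changes of the 26 genes lay between -0.38 (*C5ar2*) and 0.79 (*C1qb*), with a median of 0.22 beside 0.07 for all genes tested. The intervals were wide for some genes, for example -0.07 to 1.66 for *C1qb* and -0.77 to 2.26 for *Cfd*, both of which reach beyond 1 on the log2 scale.

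Differences of HRS legs from PBS-only legs followed, a comparison that shares the HRS legs with the first. Here 13 complement genes were higher and none was lower, with 18.9% of all genes called higher and 5.87% lower. They were 7 classical genes, *C3*, *Cfb*, *Cfp*, *C3ar1*, *C5ar1* and *Serping1*, and for each of the 13 every HRS leg was above every PBS-only leg, as for 26.6% of all genes. *C1qb* was at 9.34, 19.5, 25.2 and 29.4 normalized counts in the PBS-only legs (m867 left and right, m868 left and right), all below the HRS legs, and its log2 fold change was 3.91 ± 0.41 (adjusted p = 4.27e-06). *Cfb* was at 7.77, 14.1, 23.4 and 24.8 normalized counts (log2 fold change 4.13 ± 0.48, adjusted p = 1.02e-05). *C3* was at 79.9, 160.2, 229 and 180.0 normalized counts (log2 fold change 2.53 ± 0.40, adjusted p = 0.00013). The left leg of mouse m867 was the lowest of all 16 libraries for 12 of these 13 genes, the exception being *C5ar1*. *C5ar2*, at 0.647 to 0.978 normalized counts in PBS-only legs, had a log2 fold change of 0.97 ± 0.30 (adjusted p = 0.0116) and was not called. It was called higher in 5 of 28 alternative settings, namely without the HRS leg of mouse m866 (1.25), without both legs of that mouse (1.25), without the left leg of mouse m868 (1.03), with array weights (1.27) and with a pseudocount smaller than 0.5. *Cfd* was at 196, 283, 189 and 325 normalized counts in PBS-only legs. The groups overlapped, and its log2 fold change of -1.49 ± 0.71 did not pass the test (adjusted p = 0.0823). It was called lower in 5 of 29 alternative settings, among them without the HRS leg of mouse m866 (-1.94, adjusted p = 0.0169) and without both its legs (-1.94, 0.00142). The call also passed without the contralateral leg of that mouse, which enters the fit through the shared spread (-1.49, adjusted p = 0.0311). The remaining settings were array weights (-1.39, 0.0104) and libraries centred on their median (-1.88, 0.0298). Every HRS leg was below every PBS-only leg for *Cd46* (log2 fold change -0.83 ± 0.16, adjusted p = 0.000747) and *C8g* (-0.81 ± 0.22, 0.0064), as for 5.18% of all genes, but both were called only with quantile normalization or with libraries centred on their median. *Clu* was not called (-0.83 ± 0.23, 0.00622), and was called lower without the HRS leg or both legs of mouse m866 (-1.06 each) and with libraries centred on their median (-1.22).

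**Figure D5:**
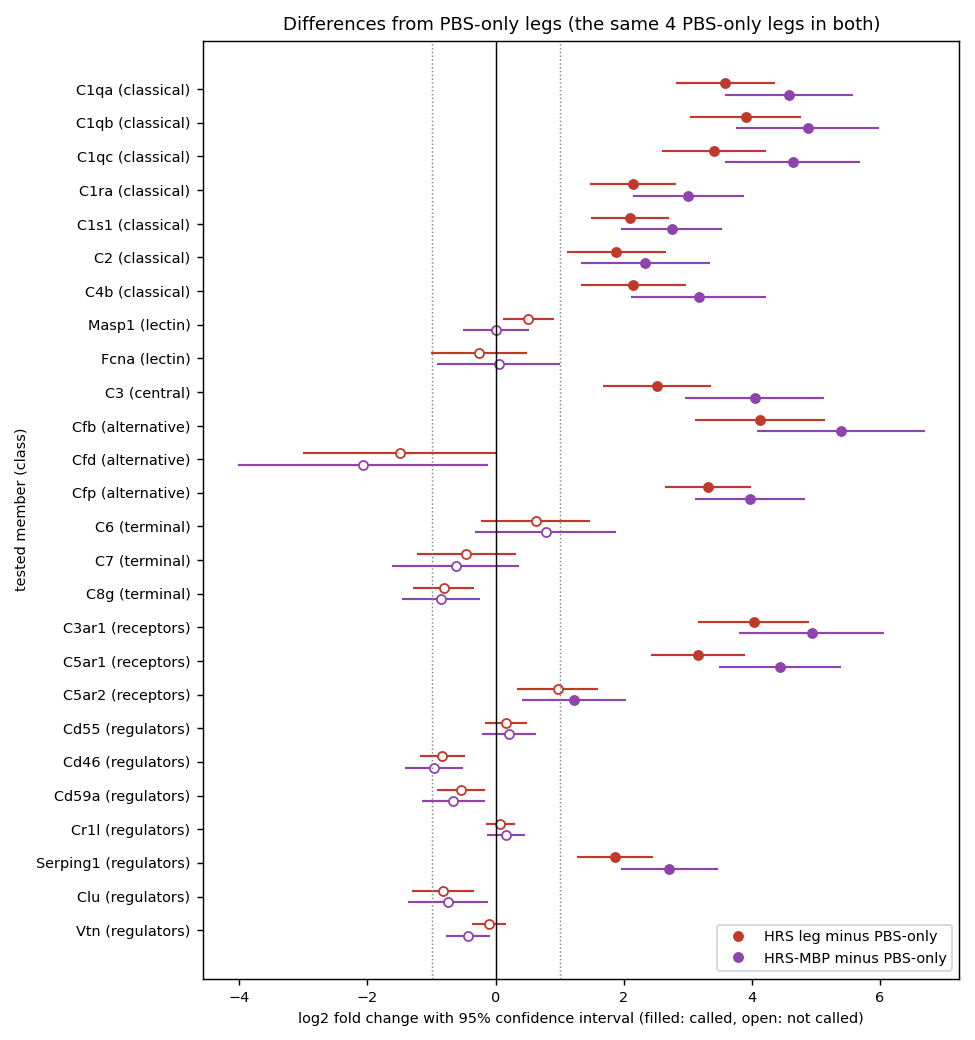
Log2 fold change (x axis) with 95% confidence interval of each tested complement gene against the same 4 PBS-only legs, for HRS legs (n = 5) and HRS-MBP libraries (n = 2); filled points are called and open points are not. HRS-MBP values lie at or to the right of HRS leg values for all genes called in HRS legs, and *Cfd* lies to the left in both without being called.

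The HRS-MBP libraries were compared with the same PBS-only legs. By limma, 14 complement genes were higher and none was lower, with 20.7% of all genes called higher and 10.2% lower. *C3* was at 2132 and 2964 normalized counts in the libraries of mice m860 and m861, *Cfb* at 581 and 829, *C1qb* at 591 and 567 and *C3ar1* at 114 and 99.6. Both libraries were above all PBS-only legs for each of the 14 genes, as they were for 39.8% of all genes. Log2 fold changes reached 5.40 ± 0.62 for *Cfb*, 4.94 ± 0.53 for *C3ar1*, 4.88 ± 0.53 for *C1qb* and 4.05 ± 0.51 for *C3* (adjusted p = 8.69e-06, 5.34e-06, 5.34e-06 and 1.86e-05). *C5ar2*, at 3.08 and 2.07 normalized counts, was called (log2 fold change 1.23 ± 0.39, adjusted p = 0.014), but not when the library of mouse m860 was left out (0.99, adjusted p = 0.131), with a pseudocount of 2 (0.70, 0.0155), with quantile normalization (0.70, 0.0963) or with libraries centred on their median (0.80, 0.0637). *Cfd* was at 44.1 and 73.9 normalized counts, below all 4 PBS-only legs. Its log2 fold change of -2.07 ± 0.92 missed the threshold (adjusted p = 0.0652) and passed it in 8 of 29 alternative settings. Among them were the fits without the HRS leg of mouse m866 (adjusted p = 0.0364), its contralateral leg (0.0233) or both (log2 fold change -2.07, adjusted p = 0.00432). The fit without the HRS leg of mouse m864 was another. Besides *Cfd*, 4 complement genes were below all PBS-only legs in both libraries, as 30.6% of all genes were, with adjusted p-values under the threshold and without passing the fold threshold. They were *Cd46* (log2 fold change -0.96 ± 0.21, adjusted p = 0.00174), *C8g* (-0.85 ± 0.29, 0.0208), *Clu* (-0.74 ± 0.29, 0.0412) and *Cd59a* (-0.66 ± 0.23, 0.0242). All 4 were called lower with libraries centred on their median. *Cd46* and *C8g* were also called lower with quantile normalization and with a pseudocount smaller than 0.5, *Cd46* without the library of mouse m860 or the right leg of mouse m868, and *C8g* without the library of mouse m861 (-1.04).

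HRS-MBP libraries and HRS legs were compared directly. Adjusted for all genes, limma called no complement gene in either direction, beside 0.396% of all genes called higher and 0.067% lower in HRS-MBP. At an unadjusted p below 0.05, 8 complement genes were higher in HRS-MBP and 1 (*Masp1*) was lower, beside 8.39% and 6.06% of all genes. All 14 genes called higher in HRS legs had a log2 difference above 0, that of *C5ar2* turning to -0.07 with array weights and also below 0 without the HRS leg of mouse m866. In 4 of the 26 genes (*C1qc*, *C3*, *C4b* and *C5ar1*), both HRS-MBP libraries were above every HRS leg, which held for 7.1% of all genes. *C3* had the largest difference, 1.52 ± 0.49 on the log2 scale (95% confidence interval 0.47 to 2.57, adjusted p = 0.191). Without the HRS leg of mouse m864, 4 complement genes were called higher in HRS-MBP, beside 3.25% of all genes in the same fit: *C3* (log2 difference 1.82, adjusted p = 0.0203), *Cfb* (1.70, 0.0381), *C5ar1* (1.47, 0.0486) and *Serping1* (1.09, 0.0297). The titles give the HRS-MBP protein at 2 to 3 mg/mL and the HRS legs received 3 to 5 mg/mL, so that protein, concentration and, where it is not known, leg cannot be told apart here.

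Promoter windows from RefSeq (GRCm38.p6, 250 bases before to 50 bases after a start) were found for 23 of the 32 genes, in 26 windows. They were searched on both strands for the core of the interferon-stimulated response element, a kappa B site and GAGGAAG, a core of PU.1 sites. Of all 32851 windows in the table, 3.44%, 0.41% and 13.63% held them, respectively. The interferon element was found in *Cd46*, *Cd59a* and *Vtn*, the PU.1 core in *Fcna*, *C1qc* and *C5ar2*, and the kappa B letters in no window of a complement gene. Of the 14 genes that rose, *C1qa*, *C2*, *C4b*, *Cfb* and *Serping1* had no window and were not searched. Among the rest, *C1qc* and *C5ar2* held a match of these motifs, in both cases before the start. The other window of *C5ar2*, before the annotated start of the gene, held no match. The sequences that hold these matches are given with them; capitals mark GAGGAAG or its reverse complement. The *C1qc* sequence (chr4:136893066-136893164, minus strand) is the part of the window beyond the annotated gene, and the *C5ar2* sequence (chr7:16242332-16242581, minus strand) precedes a start inside the gene. A match of these letters is a description of the sequence and not evidence of binding.
C1qc: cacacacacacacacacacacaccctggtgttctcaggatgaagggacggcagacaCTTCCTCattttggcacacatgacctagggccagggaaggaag
C5ar2: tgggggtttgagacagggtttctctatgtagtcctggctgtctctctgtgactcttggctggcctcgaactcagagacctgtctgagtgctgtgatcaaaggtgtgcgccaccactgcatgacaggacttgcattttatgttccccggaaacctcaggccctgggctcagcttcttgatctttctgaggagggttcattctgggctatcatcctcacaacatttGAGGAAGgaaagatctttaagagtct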

How the data were processed

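Poly(A) RNA of 16 mouse hamstring libraries was sequenced from strand-specific libraries on 3 Illumina platforms, which the labels do not assign to libraries. The authors deposited 1 table of normalized counts, a signal that is never negative; per the labels, their processing notes name STAR 2.7.8a, limma and mm39, with no further description of the scaling in the sources used here. The starts of 99.4% of matched genes equalled those of GENCODE M21 (GRCm38), so coordinates were read as GRCm38, with ends 1 base before the deposited stop. Library totals lay between 726797 and 1252358. Of low values (up to 20 steps), 74.8% to 77.0% were whole multiples (within 0.02) of the value of 1 read, so reads were not recovered and no count model was run; that step gave the implied depths and read numbers.

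Tests used limma 3.58.1 in R 4.3.3 (lmFit, contrasts.fit, eBayes, trend by mean level) of log2 values after adding 0.5 to the normalized count, with 1 fit of 4 groups and Benjamini-Hochberg adjustment over 16414 genes. Fold changes are on this scale, which understates changes of low genes. Ratios of means are of unlogged values, and values were not divided by gene length, so levels were not compared between genes. Errors are SE for log2 fold changes, intervals are at 95%, and the fit was tested on simulated data before use. The legs of mice m862 to m866 are paired by the mouse labels, with same-mouse correlations of deviations of 0.119, 0.163, 0.0972, -0.0256 and -0.366; an exact sign-flip test of the mean leg difference cannot go below 0.0625 with 5 mice, and it reached that value (two-sided) for all genes called except *C2*. All complement genes are named; values per library are given for called genes, up to 4 per class, and for genes that moved against their class, and more were added after their values were seen (*C2*, *C4b*, *C4a*, *Clu*, *Cfi* and *Hc*). The members and the lists were chosen with earlier results of these data known. A comparison of the proteins was not made because no protein sequences were used here; C4 transcripts were aligned with Biopython 1.88, and figures were drawn with matplotlib 3.10.9. No library had values identical to another's, and every column with values of a sample was used. The alternatives covered the pseudocount, filter, scaling, trend, weights, mouse block, averaging of PBS-only legs, the libraries in the fit and each library left out; leaving out both legs of mouse m866 or m864 and counting the lists by the mean over the 9 PBS libraries alone were chosen with the data in view. The values of 1 further complement gene and the matches of 1 promoter motif are not reported here.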

Additional observations from a re-analysis of the deposited data

Results flagged for a closer look

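In groups of 4 or 5 libraries, 12 of 78 sets of unlogged values of tested complement genes held 1 library far from the others by Dixon's criterion. For normally distributed values, chance alone gives this in about 1 of 20 sets. Unlogged counts need not be so distributed, so the 12 are a description and no excess over chance is read from them. Sets of 1 library are not independent of each other. The HRS leg of mouse m864 was the highest for 6 genes: *C1ra* (284 normalized counts, next 144), *C1s1* (637, next 316), *C2* (54.9, next 23.9), *C3* (2014, next 874), *Cfb* (963, next 284) and *Serping1* (521, next 265). The contralateral PBS leg of mouse m866 was the highest for *C2* (21.4 normalized counts, next 10.0), *Cfb* (46.5, next 22.0) and *Cfd* (2219.5, next 367). The left leg of PBS-only mouse m867 was the lowest for *C1qc* (9.99 normalized counts, next 19.8) and *Vtn* (17.2, next 22.9), and the highest for *Clu* (62.5, next 48.7). Without both legs of mouse m864, the 6 genes high in its HRS leg were still called higher in HRS than in contralateral legs, with log2 fold changes from 1.01 (*C2*) to 3.17 (*Cfb*).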

How the results depend on the processing

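Over 3776 values of tested complement genes under alternatives, 3713 kept their side of the thresholds, 6 lost a call and 57 gained one. No called value changed sign, but 88 values that were not called did. Between HRS and contralateral legs the latter were of *Masp1*, *Fcna*, *C6*, *Cd55*, *Cr1l* and *Vtn*. All 6 losses were of *C5ar2*. The number of complement genes called higher against contralateral or PBS-only legs stayed within 1.5 times in every setting run. The number called lower did not. Between HRS and contralateral legs, where it was 1, it was 4 with quantile normalization, 2 with libraries centred on their median, 3 with array weights, 2 without both legs of mouse m866, and 1 to 2 with each library left out in turn. Between HRS and PBS-only legs, where it was 0, these settings gave 2, 4, 1, 2 and 0 to 2. Between HRS-MBP and PBS-only legs, also 0, they gave 2, 5, 1, 1 and 0 to 1, and it was 2 with the smaller pseudocount, 1 with only the groups compared in the fit, and 1 without both legs of mouse m864. Higher calls in HRS-MBP against HRS legs, where there were 0, numbered 3 with array weights, 3 without both legs of mouse m864, and 0 to 4 with each library left out in turn. The shares of all genes called in the same fits were not counted for these settings, apart from the fit without the HRS leg of mouse m864. These numbers therefore cannot be read as particular to complement genes. Quantile normalization and centring shifted the median over all tested genes, on the log2 scale and between HRS and contralateral legs, from 0.08 to -0.16 and -0.23. With mouse as a replicate block, fixed or as a consensus correlation, 14 complement genes were called higher and 1 lower between HRS and contralateral legs. The fixed block called 3652 of all 16414 tested genes in either direction, and the number with the consensus correlation was not counted. The blocks changed no other call of a complement gene. The cause of these shifts was not tested. The values of *C4a*, *Masp2*, *Hc*, *Cr2*, *Vsig4* and *Cfi* rest on few reads, and PBS-only legs, from 2 mice, limit the comparisons that use them.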
